A study of Mus musculus with 6 samples.

Results

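Rhox5, Rhox1, Hormad1 and Stra8 are 4 germline genes, taken by symbol from the 1653 genes listed in each of 6 bulk RNA-seq libraries of mouse embryonic stem cells. Such cells derive from the early embryo, renew themselves and can give rise to any tissue. All were of the strain C57BL/6 and grew with serum and leukemia inhibitory factor on mouse embryonic fibroblasts inactivated with mitomycin-C. The control group was wild type (3 libraries), and the other group, Yaf2KO (3 libraries), carried a knockout of Yaf2 made with Cas9. The labels do not say whether the replicates were separate cultures or clones, so a p-value here speaks of the spread among these libraries alone, which may be technical. The rows analysed here do not include Yaf2, so the knockout could not be checked at its transcript.

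Germline genes are kept silent in most other cells by methylation of DNA at their promoters and by repressor complexes. A variant Polycomb repressive complex 1 that holds PCGF6, the sequence-specific factors E2F6 and MGA, and RYBP or its paralogue YAF2 is known to silence meiotic genes in embryonic stem cells, which is why these genes are of interest in a Yaf2 knockout. The study's title names expression regulation by Yaf2 as its subject. RHOX5 and RHOX1 are homeodomain proteins of the reproductive homeobox cluster on the X chromosome, and Rhox5 is also known as Pem, a gene of embryonic stem cells, placenta and the Sertoli cells of the testis. HORMAD1 binds unsynapsed chromosome axes in meiosis and is needed for meiotic double-strand breaks. STRA8 is the factor, induced by retinoic acid, that starts the meiotic programme.

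In mm10 coordinates of the files, Rhox5 (ENSMUSG00000095180) lies on chromosome X from 37804842 to 37808876 on the plus strand. Rhox1 (ENSMUSG00000071773) lies on the same chromosome from 37213804 to 37222258 on the minus strand. Hormad1 (ENSMUSG00000028109) lies on chromosome 3 from 95559677 to 95587671, and Stra8 (ENSMUSG00000029848) on chromosome 6 from 34920163 to 34939344, each on the plus strand. The GENCODE vM21 annotation of GRCm38, the mm10 assembly, gives the same coordinates for all 4, calls them protein-coding and lists 0 other genes overlapping any of them. Each count is a total for the gene, with no division by exon or isoform.

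Promoters are shown for Hormad1 and Rhox1, whose RefSeq start site equals that in the files. Their promoters differ in base composition. Each sequence is the 250 bases before the RefSeq start site (GRCm38.p6), read 5′ to 3′ on the strand of the gene. Capitals mark CACGTG, the E-box bound by MAX with MGA, and GGCGGGAA, an E2F site, each searched on both strands.
Hormad1, chr3:95559427-95559676, plus strand: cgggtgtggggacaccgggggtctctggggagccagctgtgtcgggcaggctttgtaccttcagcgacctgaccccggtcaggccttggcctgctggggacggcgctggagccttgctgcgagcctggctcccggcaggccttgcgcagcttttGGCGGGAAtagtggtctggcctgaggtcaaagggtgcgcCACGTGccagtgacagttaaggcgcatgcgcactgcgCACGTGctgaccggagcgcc
Rhox1, chrX:37222259-37222508, minus strand: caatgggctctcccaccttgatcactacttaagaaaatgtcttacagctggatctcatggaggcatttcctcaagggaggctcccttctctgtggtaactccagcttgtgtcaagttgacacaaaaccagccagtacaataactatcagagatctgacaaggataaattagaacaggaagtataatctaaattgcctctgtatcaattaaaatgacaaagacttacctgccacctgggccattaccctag

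The Hormad1 window held 2 CACGTG matches, 57 and 20 bases before the start counted to the first base of the match, and 1 GGCGGGAA match at 96 bases. Among the promoters of 27025 genes, 5.93% held CACGTG and 1.90% held GGCGGGAA in the same window. The Rhox1 window held 0 matches to either motif, and so did the windows of Rhox5 and Stra8, which are not printed. The RefSeq start of Rhox5 lies 50.2 kb upstream of the start of the gene in the files, and the Stra8 window overlaps an annotated exon. AGGTCA, a sequence bound by retinoic acid receptors, was found in 3774 of the 27025 promoters, with 2 matches in the window of Stra8, 1 in that of Hormad1 and 0 in those of the Rhox genes. Hormad1 had 19 CpG dinucleotides and 68.0% G and C, Stra8 had 5 and 54.8%, Rhox5 4 and 42.8%, and Rhox1 0 and 42.8%, against medians of 5 and 52.0% over all promoters. A match describes these letters and not binding, which was not measured here.

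The listed genes summed to between 56367 and 451075 counts per library. It leaves out every other gene, so library depth is unknown here. The sum was larger in every Yaf2KO library than in the wild-type mean, by 6.94, 3.87 and 2.21 times in Yaf2KO 1, 2 and 3. Raw counts were therefore read against the whole list, and scaled counts were used beside them: CPM, computed with TMM factors on the listed counts alone, which by construction holds the typical listed gene constant. Of the cell type markers, Nanog, of embryonic stem cells, had at least 1750 counts in every library. Of 8 germ cell markers only Nanos3 was listed, and of 5 Sertoli cell markers 0. A gene off the list was not analysed here, so its absence says nothing of its expression.

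In raw counts all 4 genes had more reads in Yaf2KO than in wild type when the 3 libraries were summed. So had all 376 genes that passed the low-count filter. Yaf2KO 1 carried most of the Yaf2KO reads of the 4 genes. For Rhox5 the wild-type libraries 1 to 3 held 241, 234 and 210 counts, against 2788, 1182 and 131 in the Yaf2KO libraries 1 to 3. The wild-type counts lay close together, those of Yaf2KO 1 and 2 were well above them, and that of Yaf2KO 3 was below all 3. Rhox1 counts were 14, 8 and 10 for wild type, against 174, 14 and 0 for Yaf2KO. Only Yaf2KO 1 stood above the wild-type libraries, Yaf2KO 2 equalled the highest of them, and Yaf2KO 3 held no read, which allows up to 3 counts. Hormad1 counts were 44, 22 and 23 for wild type, against 392, 69 and 19 for Yaf2KO, again with Yaf2KO 3 below every wild-type library. Stra8, with 20, 16 and 34 counts for wild type against 221, 113 and 41 for Yaf2KO, was the gene of the 4 whose groups did not overlap. Among the tested genes, the 376 that passed the low-count filter, 98.7% were above every wild-type library in Yaf2KO 1 (4 of the 4 genes here), 93.4% in Yaf2KO 2 (3 of 4) and 69.9% in Yaf2KO 3 (1 of 4).

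**Figure D1:**
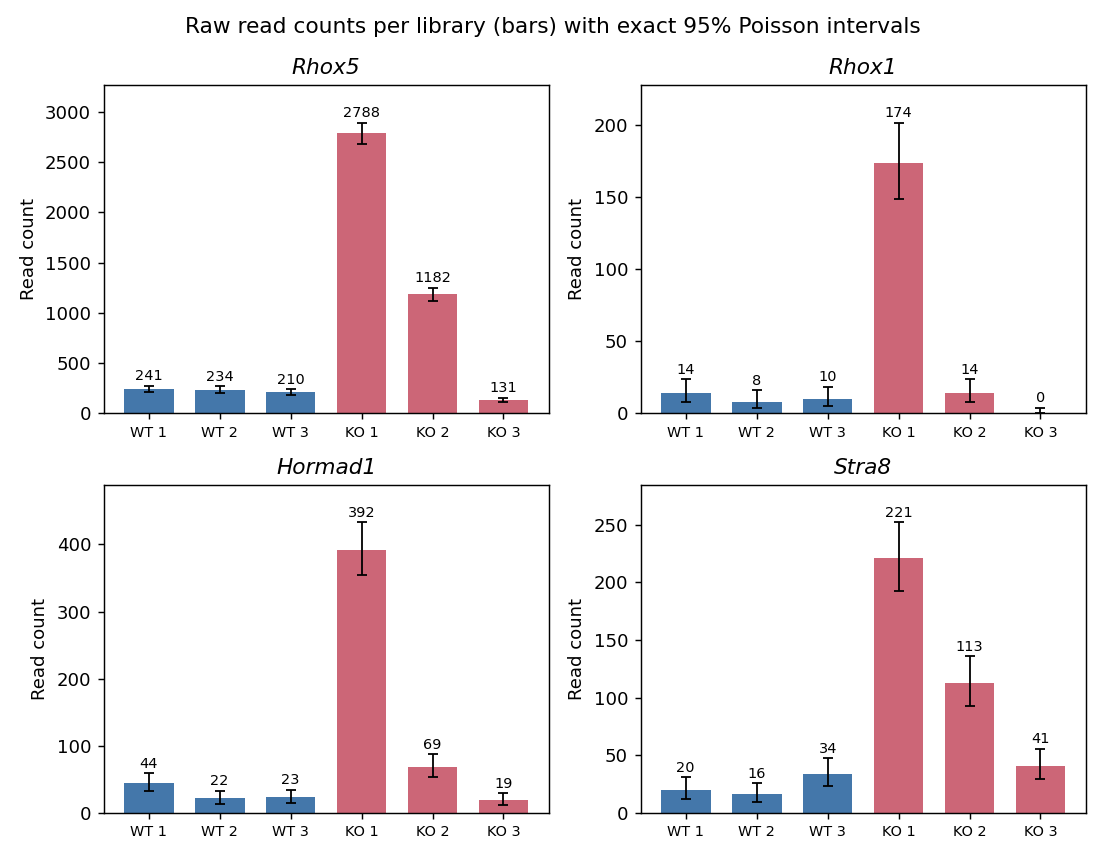
Raw read counts of the 4 genes per library (WT, wild type; KO, Yaf2KO; vertical axis from 0), with exact 95% Poisson intervals that cover counting error only. Yaf2KO 1 is the highest library in every panel, and Yaf2KO 3 is below every wild-type library for Rhox5 (131), Rhox1 (0) and Hormad1 (19).

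Of all 1653 listed genes 27.4% had every Yaf2KO count above every wild-type count, and of the tested genes 65.2% did. The 1 of 4 here, Stra8, is thus a smaller share than among tested genes; the difference in share was not tested. The log2 ratio of summed counts was 2.58 for Rhox5, 2.56 for Rhox1, 2.43 for Hormad1 and 2.42 for Stra8. With 3 libraries in each group an exact two-sided permutation test cannot go below p = 0.1. On log2(count + 1) it gave 0.1 for Stra8, 0.4 for Rhox5 and Hormad1, and 0.8 for Rhox1.

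Relative to the wild-type mean, Yaf2KO 1 had 12.2 times as many Rhox5 reads, 16.3 times as many of Rhox1, 13.2 times as many of Hormad1 and 9.47 times as many of Stra8, all above the 6.94 times of the listed sum. By scaled log2 difference, Yaf2KO 1 stood at percentile 79.3 of the tested genes for Rhox5, 86.2 for Rhox1, 84.0 for Hormad1 and 67.0 for Stra8. In Yaf2KO 3 the same ratios of reads were 0.574 for Rhox5, 0.640 for Hormad1 and 1.76 for Stra8, all under the 2.21 times of the listed sum. Stra8 was near the middle of the tested genes there, at percentile 45.2 by scaled log2 difference. Counts fell below every wild-type library there in 3 of the 4 genes, against 8.24% of the tested genes. Yaf2KO 2 split the genes: Rhox5 (5.18 times) and Stra8 (4.84 times) were above the 3.87 times of its listed sum, while Hormad1 (2.33 times) and Rhox1 (1.31 times) were below it.

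After scaling on the list, the groups overlapped for all 4 genes and none passed the test. Among the tested genes 6.12% had every Yaf2KO library above every wild-type library and 4.26% every one below. Rhox5 stood at 3596, 4038 and 3031 CPM in wild type (3555 ± 505, SD, n = 3) and at 5743, 4663 and 987.5 CPM in Yaf2KO (3798 ± 2493, SD, n = 3). Its group means were close, while the Yaf2KO libraries lay on opposite sides of the wild-type range, with Yaf2KO 1 and 2 above and Yaf2KO 3 below. The log2 fold change of Rhox5 was 0.10 (SE 0.55, adjusted p = 0.964, edgeR quasi-likelihood over all tested genes).

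Rhox1 stood at 209, 138 and 144 CPM in wild type (164 ± 39.2, SD, n = 3) and at 358, 55.2 and 0 CPM in Yaf2KO (138 ± 193, SD, n = 3). Only Yaf2KO 1 was above the wild-type range; Yaf2KO 2 and 3 were below it. The log2 fold change of Rhox1 was -0.19 (SE 1.07, adjusted p = 0.964 by edgeR). Without Yaf2KO 1 it was -2.34 (adjusted p = 0.301 by edgeR). It was above 0 without Yaf2KO 3 (0.32), without Yaf2KO 2 (0.18) or without wild type 1 (0.06), so its sign is not settled.

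Hormad1 stood at 657, 380 and 332 CPM in wild type (456 ± 175, SD, n = 3) and at 807, 272 and 143 CPM in Yaf2KO (408 ± 352, SD, n = 3). As for Rhox1, Yaf2KO 1 was above and Yaf2KO 2 and 3 were below every wild-type library. The log2 fold change of Hormad1 was -0.15 (SE 0.66, adjusted p = 0.950 by edgeR), and it came to -1.12 without Yaf2KO 1 and to 0.25 without wild type 1. Stra8 stood at 298.5, 276 and 491 CPM in wild type (355 ± 118, SD, n = 3) and at 455, 446 and 309 CPM in Yaf2KO (403 ± 81.8, SD, n = 3). All 3 Yaf2KO libraries were inside the wild-type range with TMM factors, but Yaf2KO 1 was above it when scaled on the listed sum alone, and Yaf2KO 1 and 2 were above it with DESeq2 size factors. The log2 fold change of Stra8 was 0.18 (SE 0.49, adjusted p = 0.950 by edgeR). As background, 3 of the 376 tested genes (0.798%) were called at an adjusted p under 0.05 by edgeR, and 16 had an unadjusted p under 0.05; of the 4 genes 0 did.

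**Figure D2:**
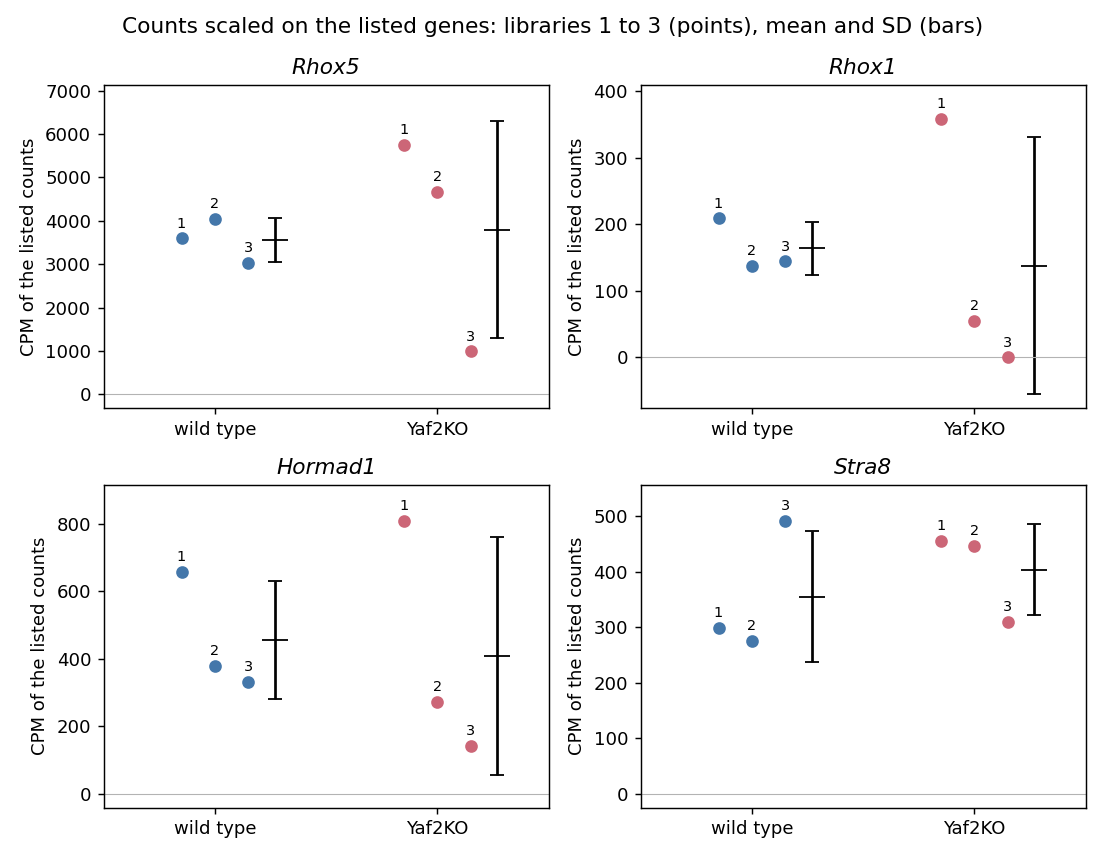
Counts scaled on the listed genes (CPM of the listed counts) for the 4 genes, with points numbered by library and bars for the mean and SD of 3 libraries. In Yaf2KO the points of Rhox5, Rhox1 and Hormad1 spread to either side of the wild-type points, while those of Stra8 (309 to 455) lie within them under this TMM scaling, though not under the other scalings.

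The fold changes are relative to the listed genes, and a shift common to the list is removed by the scaling. With all libraries taken as equally deep, the log2 fold changes were 2.58 for Rhox5, 2.54 for Rhox1, 2.43 for Hormad1 and 2.42 for Stra8, beside a median of 2.12 over all tested genes. Of the 4, Rhox5 (adjusted p = 0.0265 by edgeR), Stra8 (adjusted p = 0.0266) and Hormad1 (adjusted p = 0.0414) then passed the threshold and Rhox1 (adjusted p = 0.0809) did not, while 75.7% of all 415 genes tested this way passed it in that direction. The share among the 4 is close to that background.

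Levels of different genes can be compared only per length, here as CPM per kilobase of annotated exon. In wild type Rhox5 was the highest at 4715 ± 669.5 (SD, n = 3), followed by Hormad1 at 264 ± 101, Stra8 at 197 ± 65.5 and Rhox1 at 186 ± 44.4. The last 3 did not differ from each other beyond their spread. In Yaf2KO the order of the means was the same, with Rhox5 at 5037 ± 3306, Hormad1 at 235.8 ± 204, Stra8 at 224 ± 45.4 and Rhox1 at 156 ± 218.5 CPM per kilobase. Single libraries did not keep that order below Rhox5. In Yaf2KO 1 Rhox1 (406) stood above Stra8 (252.5), and in Yaf2KO 2 Stra8 (247) stood above Hormad1 (157).

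Taken library by library, Rhox5, Rhox1 and Hormad1 were above every wild-type library in Yaf2KO 1 and below every one in Yaf2KO 3. Among the tested genes 34.3% were above the wild-type range in Yaf2KO 1 and 34.8% were below it in Yaf2KO 3, and 16.0% were in both. This combined rule was chosen after the values were seen, and the count of 3 of 4 was the same when libraries were scaled to the sum of the listed genes or by DESeq2 size factors. As log2 differences to the wild-type mean, on the log2(CPM + 1) scale, Yaf2KO 1 stood at 0.70 for Rhox5, 1.15 for Rhox1, 0.89 for Hormad1 and 0.41 for Stra8. The SD of the wild-type libraries on that scale was 0.21, 0.33, 0.52 and 0.45. One library against 3 allows no test of the genotype, so these differences are descriptions.

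In Yaf2KO 3 the log2 difference was -1.84 for Rhox5, -1.60 for Hormad1 and -0.15 for Stra8, and Rhox1, with 0 reads, was at least 7.24-fold lower than the wild-type mean, taking 3 counts in that library as the limit. Rhox5 was at percentile 4.8 and Hormad1 at percentile 7.7 of the tested genes in that library. In Yaf2KO 2 the differences were 0.40 for Rhox5, 0.38 for Stra8, -0.68 for Hormad1 and -1.53 for Rhox1, so the X-linked homeobox genes went to opposite sides of wild type there. Rhox5 was above the whole wild-type range in Yaf2KO 2, as were 26.3% of the tested genes, and Rhox1 and Hormad1 were below it, as were 29.8%. All 4 genes fell in the order Yaf2KO 1, 2, 3 after scaling, as did 26.6% of the tested genes. Between Yaf2KO 1 and 3 the scaled level differed 5.82-fold for Rhox5, 5.64-fold for Hormad1, 1.47-fold for Stra8 and at least 15.8-fold for Rhox1.

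**Figure D3:**
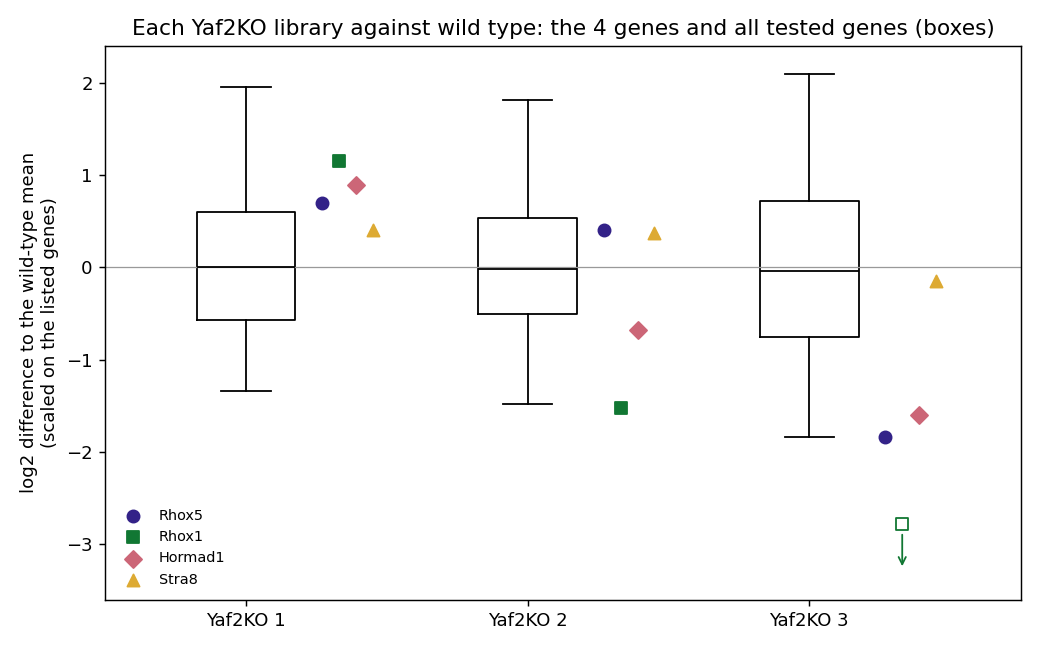
Log2 difference of each Yaf2KO library to the wild-type mean, scaled on the listed genes, for the 4 genes (symbols) and all 376 tested genes (box, quartiles and median; whiskers, percentiles 5 and 95). The open square with an arrow is Rhox1 in Yaf2KO 3, drawn at the limit of 3 counts. Rhox5, Rhox1 and Hormad1 pass from above the upper quartile in Yaf2KO 1 to below the lower quartile in Yaf2KO 3, and Stra8 stays within the box.

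The range over the 3 Yaf2KO libraries was 2.54 log2 units for Rhox5, 2.49 for Hormad1 and 0.56 for Stra8, against a median of 1.30 over the tested genes. In wild type the ranges were 0.41, 0.98 and 0.83 in the same order, and 0.59 for Rhox1, beside a median of 0.87. Stra8 was thus the gene with the narrower range in Yaf2KO than in wild type.

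Other contents of the libraries also differed among the Yaf2KO libraries, not all in the same order. Of 17 naive pluripotency genes 6 were listed, and their median log2 difference to the wild-type mean was 0.52, -0.001 and -0.72 in Yaf2KO 1, 2 and 3, the same order as for the 4 genes (medians 0.79, -0.15 and -1.72). Nanog, the core pluripotency factor, stood at 41300, 34360 and 21230 CPM in the 3 Yaf2KO libraries, against 33410, 30200 and 39780 CPM in wild type. Yaf2KO 1 was thus a little above the wild-type range, Yaf2KO 2 within it and Yaf2KO 3 below it. Of 31 markers of feeder fibroblasts 7 were listed, with a summed level of 22850 to 29550 CPM in wild type and of 9300, 49290 and 30840 CPM in Yaf2KO 1, 2 and 3. The markers Postn and Prrx1 were at 0 in Yaf2KO 1, but they had few reads in wild type too (3, 3 and 0 for Postn, 1, 1 and 1 for Prrx1). The median log2 difference of the 5 markers with a mean count of at least 10 was -1.51, 0.94 and 0.32 in Yaf2KO 1, 2 and 3. Yaf2KO 1, with the highest values of the germline genes, thus had the lowest feeder signal, but Yaf2KO 3, with the lowest values, did not have the highest. The part of the feeder cells and of the pluripotent state in these differences was not tested, and in bulk RNA fewer cells of a type and less RNA per cell cannot be told apart.

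Whether the 4 genes rise and fall together was examined over the 6 libraries in log2(CPM + 1), for the 6 pairs they form. Rhox1 and Hormad1 were the pair with the closest order. Pearson's r was 0.89 (exact permutation p = 0.00278, adjusted p = 0.189) and Spearman's rho 0.94 (exact permutation p = 0.0167, adjusted p = 0.319). The adjustment covers all 1494 relations of a member with any tested gene. Without the pair of libraries farthest from the median of Rhox1, Yaf2KO 2 and 3, r was 0.93, and without those farthest for Hormad1, Yaf2KO 1 and 3, it was 0.84. After subtracting each genotype's mean r was 0.89.

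Rhox5 and Rhox1, from the same cluster, gave r = 0.92 (exact permutation p = 0.0694, adjusted p = 0.432) and rho = 0.49 (exact permutation p = 0.356, adjusted p = 0.767). Without Yaf2KO 1 and 3, the libraries farthest from the median of Rhox5, r was -0.72, while without Yaf2KO 2 and 3, the farthest for Rhox1, it was 0.82. After subtracting each genotype's mean it was 0.97. Its sign thus depended on which libraries were left out. Rhox5 and Hormad1 gave r = 0.79 (exact permutation p = 0.0486, adjusted p = 0.425) and rho = 0.60 (exact permutation p = 0.242, adjusted p = 0.716), and r = -0.33 without Yaf2KO 1 and 3, the farthest libraries for either gene, so that relation rests on them. After subtracting each genotype's mean r was 0.79.

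For the 3 pairs with Stra8 the values of r were lower. With Rhox5 r was 0.37 and rho 0.09 (exact permutation p = 0.581 and 0.919, adjusted p = 0.855 and 0.983). With Rhox1 r was 0.31 and rho 0.26 (exact permutation p = 0.760 and 0.658, adjusted p = 0.929 and 0.917), and with Hormad1 0.14 and -0.03 (exact permutation p = 0.810 and 1.0, adjusted p = 0.945 and 1.0). Without the libraries farthest from the median of Rhox5, Rhox1 or Hormad1, r was -0.20, 0.33 and -0.67 in that order. Without wild type 2 and 3, the farthest for Stra8, it was 0.70, 0.45 and 0.28, so the sign for Rhox5 and Hormad1 depended on the libraries left out. Whether the correlations of Stra8 differ from those of the other pairs was not tested.

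Of the 1494 relations 0 passed an adjusted p of 0.05, and 168 (11.2%) had an unadjusted p under 0.05. The smallest p that 720 pairings can give is 0.00139. The median r of the 6 pairs was 0.58, against -0.008 over the 70500 pairs of all tested genes, and 40.2% of those pairs were at or above the lowest pair of the 4. All points share their libraries and scaling. On unscaled log2(count + 1) the 6 pairs gave r from 0.58 to 0.94 (median 0.86), but all pairs of tested genes had a median of 0.81 there, since every gene shares the total of its library.

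**Figure D4:**
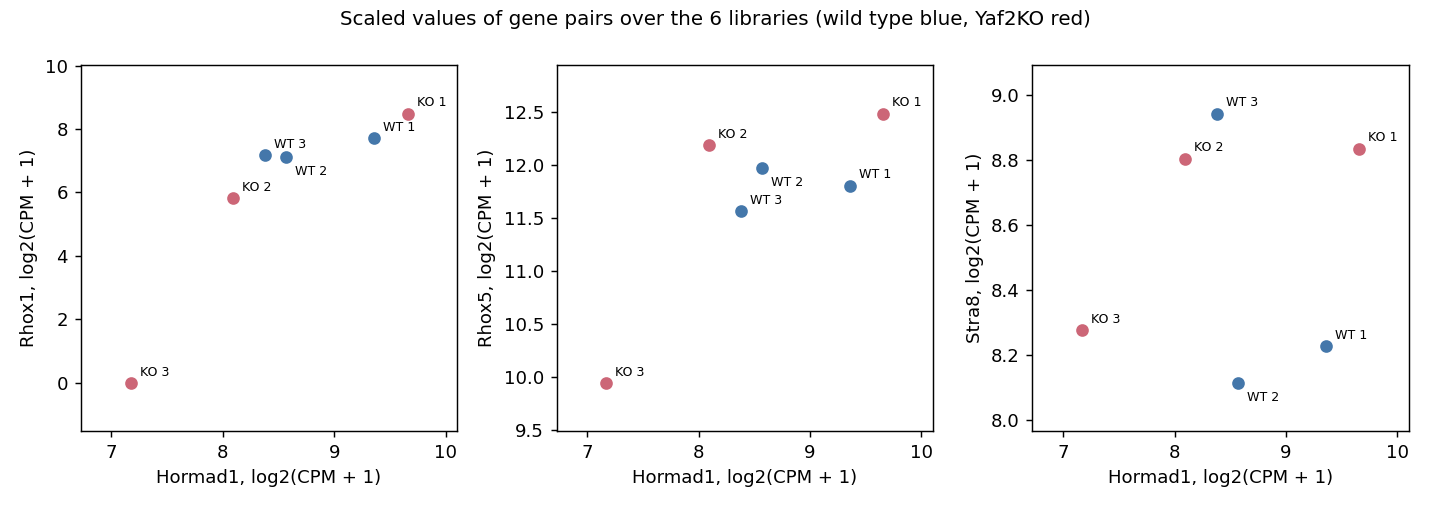
Scaled log2(CPM + 1) values of Hormad1 (horizontal axes) against Rhox1, Rhox5 and Stra8 (vertical axes) over the 6 libraries, wild type (WT) in blue and Yaf2KO (KO) in red. The points for Rhox1 keep nearly the same order as for Hormad1 (rho 0.94), those for Rhox5 have Yaf2KO 1 and 3 at the ends, and those for Stra8 show no common order (rho -0.03).

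The genes with the highest r to each member were read from all tested genes as a description. For Rhox5 they were Inhbb (r = 0.98; 25, 18 and 14 counts in wild type, 368, 161 and 6 in Yaf2KO), Cpsf4l (0.98) and Il17re (0.97). For Rhox1 they included RP24-127M20.6 (r = 0.99; 11, 11 and 11 counts, then 156, 22 and 0) and 1700061G19Rik (0.98). RP24-127M20.6 shares with Rhox1 the absence of reads in Yaf2KO 3. For Hormad1 they were Manba (0.96), Slc15a1 (0.95) and the pluripotency factor Klf5 (0.95), and for Stra8 the histone gene Hist1h3c (0.90), Gm28438 (0.87) and Gm6792 (0.86). No gene named here stood among the closest for more than 1 of the 4.

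Of 32 symbols of the reproductive homeobox cluster 5 were listed, and the others were not analysed here. Beside the pair described, Rhox2f, Rhox4e and Rhox4g had at most 1 count in any wild-type library. Rhox4g counts were 0, 1 and 1 for wild type, against 11, 5 and 0 for Yaf2KO. Rhox2-ps (0, 0 and 3, then 8, 2 and 0) and Rhox4a2 (0, 1 and 0, then 0, 3 and 0), which were not among the symbols searched, were listed within 500 kb of both. Rhox2 and Rhox4 genes are near-identical copies, so reads can be split between them and their counts are uncertain. Gm9, which starts at 37209348 and ends 2763 bases from Rhox1 on the same chromosome, had counts of 8, 1 and 1 for wild type, against 109, 9 and 0 for Yaf2KO. It was below the low-count filter, and its r with Rhox1 was 0.90. Of the 76 listed genes on chromosome X 22 were tested, with 0 called and a median log2 fold change of -0.16. Over the 28 with a mean count of at least 10 the median difference in Yaf2KO 3 was 0.19, where Rhox5 stood at -1.84. Of the 22 tested, 8 were below every wild-type library in Yaf2KO 3, Rhox5 and Rhox1 among them, beside 34.8% of all tested genes.

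Near Hormad1, 4 listed genes lay within 500 kb, of which Car14, a carbonic anhydrase gene, was tested (8, 20 and 70 counts in wild type, 173, 87 and 94 in Yaf2KO; log2 fold change -0.08, SE 0.71). Its scaled level in Yaf2KO 3, at 709 CPM, was above that in Yaf2KO 1, at 356 CPM, unlike Hormad1. Near Stra8, 2 genes were listed, and 2010107G12Rik was tested, at a log2 fold change of 0.60 (SE 0.54, adjusted p = 0.950 by edgeR).

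The wider germline gene lists gave 0 calls in either direction over all tested genes. Of 45 meiotic genes 6 were listed and 5 tested, including Hormad1 and Stra8 (median log2 fold change 0.12). Smc1b, the meiotic cohesin subunit, had counts of 20, 9 and 25 against 316, 45 and 14, with a log2 fold change of 0.21 (SE 0.71). Hormad2, the partner of HORMAD1 on chromosome axes, had 21, 8 and 14 against 170, 52 and 20 (0.12, SE 0.56). Sycp2, of the synaptonemal complex, had 5, 5 and 9 against 56, 13 and 2 and was not tested. Spata22, a recombination gene, went another way, with 72, 22 and 34 against 134, 235 and 42 (-0.36, SE 0.62): after scaling it was at 927 CPM in Yaf2KO 2 and at 276 CPM in Yaf2KO 1.

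Of 32 genes of the piRNA pathway and germ cell RNA regulation 3 were listed and 0 tested. Fkbp6, of the piRNA pathway, had 3, 0 and 1 counts against 42, 17 and 1, and Nanos3, which protects primordial germ cells, had 5, 2 and 0 against 47, 22 and 11. Of 14 germ cell specification genes 4 were listed and 3 tested. Prdm14 had counts of 70, 43 and 83 against 508, 246 and 66 (log2 fold change -0.24, SE 0.47), Tfap2c 736, 637 and 395 against 5789, 2751 and 1193 (0.20, SE 0.35), and Dppa3 364, 403 and 450 against 3555, 1316 and 579 (-0.16, SE 0.33). All 3 are also known from embryonic stem cells. Zbtb16, a spermatogonial transcription factor, had counts of 3, 1 and 1 against 7, 7 and 3. The repressor list, of 29 symbols, also covers other genes of DNA methylation. Only Tet2 from it was listed, which encodes a 5-methylcytosine oxidase and is not itself taken as a repressor here. It held 465, 345 and 533 reads in wild type, then 5272, 1610 and 509 in Yaf2KO (0.03, SE 0.40). Tet2 is also in the naive pluripotency list. The other symbols of the repressor list were not analysed here, so these values do not describe the repressors.

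Over the 4 germline lists together, 18 of 123 symbols were listed. All 18 had more reads summed over Yaf2KO, as had all 376 tested genes. Of the 18, 10 were tested, with a median log2 fold change of -0.02 beside -0.03 over all tested genes. Among the 6 tested genes other than those described, 5 had the order Yaf2KO 1, 2, 3 after scaling (background 26.6%) and 2 were above every wild-type library in Yaf2KO 1 and below every one in Yaf2KO 3 (background 16.0%). The last pair was Smc1b and Dppa3, named after their values were seen. The order Yaf2KO 1, 2, 3 was not particular to germline genes. All 6 tested naive pluripotency genes had it too, and 3 of them met the combined rule. Prdm14 counts in both the germline and the naive lists. These lists were chosen with earlier results of these data known.

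**Figure D5:**
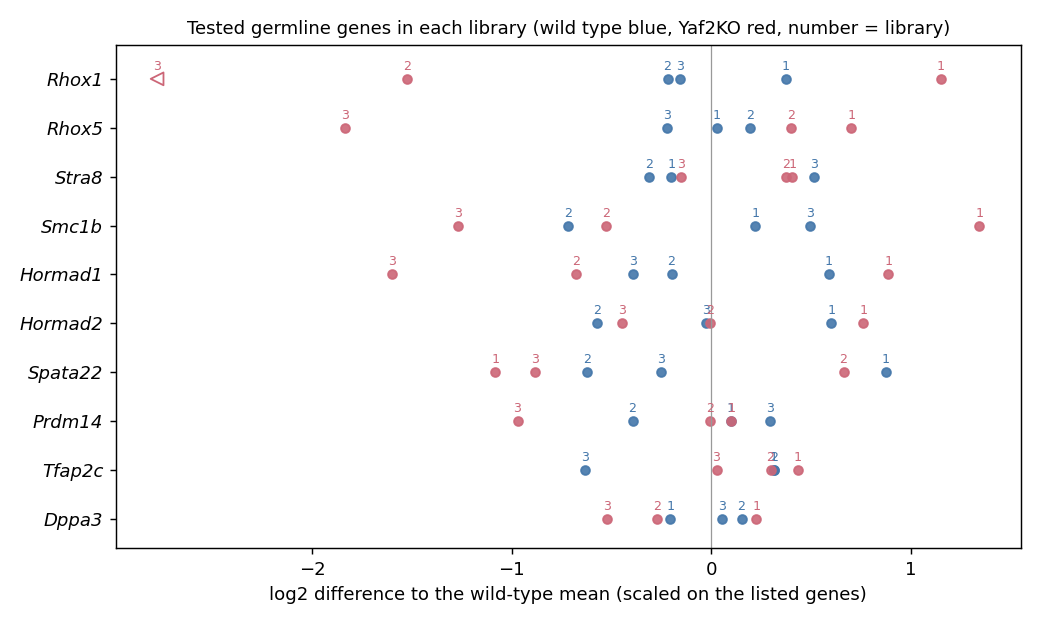
Log2 difference to the wild-type mean, scaled on the listed genes, of the 10 tested germline genes in each library (wild type blue, Yaf2KO red, numbered by library; the open triangle is Rhox1 in Yaf2KO 3 at the limit of 3 counts). In 9 of the 10 genes Yaf2KO 1, 2 and 3 run from right to left in that order, as they do in 26.6% of the tested genes. Spata22 is the exception.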

How the data were processed

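The authors deposited raw read counts per gene, 1 file per library, per the file headers. HTSeq 0.6.0, TopHat2 2.0.12, Cufflinks 2.2.1 and the build mm10 appear, without roles, in the submitters' processing notes; no strand setting is given in the sources used here. Libraries came from poly-T selected mRNA (NEBNext Ultra), per the labels' protocols. Groups and replicate numbers came from the titles. All 15 pairs of libraries differed by more than sampling noise (lowest chi-square statistic, relative to its degrees of freedom, 5.01).

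All 1653 genes entered 1 model: edgeR 4.0.16 quasi-likelihood (R 4.3.3), TMM factors (0.923 to 1.076), filterByExpr by genotype (376 genes left, all 4 members among them), Benjamini-Hochberg adjustment, threshold 0.05; the procedure was tested on simulated data. CPM is relative to the TMM-scaled listed sum. The pseudocount was 1 CPM. Correlations used all 720 pairings. Poisson intervals and the limit of 3 counts cover counting error only. RefSeq promoters (GRCm38.p6) matched all 4 members. Named genes were the members, listed genes of the 4 germline lists and the repressor list with at least 10 reads, examples of the highest mean count from the naive and feeder lists (Nanog), the 3 highest r per member (1 of them is not reported here) and listed genes within 500 kb; the low counts of Rhox2f and Rhox4e, and Postn and Prrx1 for their counts of 0, were singled out after their values were seen. The members, lists and tests were chosen with earlier results of these data known. Alternatives were DESeq2 1.42.0, limma 3.58.1 (voom), other scalings, filters and pseudocounts, a replicate block and each library left out. The remaining steps used scipy 1.17.1, pandas 2.3.3 and numpy 2.4.6 under Python 3.11.15, with matplotlib 3.10.9 for plots.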

Additional observations from a re-analysis of the deposited data

How the results depend on the processing

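The 3 called genes became 0 at an adjusted p under 0.01, 0 by limma-voom (14 at an unadjusted p under 0.05), 10 by the DESeq2 Wald test, 15 without a low-count filter, 15 at a mean CPM of at least 1 and 314 at equal depth, which leaves the common shift of 2.16 log2 units in place. Leaving out single libraries gave 0 to 11. The fold changes of Rhox5, Rhox1 and Hormad1 have no stable sign. Rhox5 turned to -0.037 with upper-quartile factors and -0.14 by limma-voom. Rhox1 turned to 0.17 without a filter, 0.17 at a mean CPM of at least 1 and 2.54 at equal depth, and Hormad1 to 0.18, 0.18 and 2.43. At equal depth Rhox5 (2.58), Stra8 (2.42) and Hormad1 passed the threshold. With single libraries left out Rhox5 ranged from -0.32 to 0.55, Rhox1 from -2.34 to 0.32, Hormad1 from -1.12 to 0.25 and Stra8 from 0.08 to 0.48, with 0 calls. The cause of these turns was not tested, other than that equal depth keeps the common shift by construction and that more genes are tested without a filter.

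A paired fit, with replicate as the block, called 0 genes (unadjusted p under 0.05 in 18). Rhox5 turned to -0.21 and Rhox1 came to -1.19. The numbers are only shared: across genes, libraries of equal number had deviations with r = 0.02, 0.14 and 0.14, and not every library correlated best with its own number. All 36 alternative values of the pair correlations, from other scalings, pseudocounts and genotype centring, kept their sign and their side of the threshold where tested. Their size moved, from 0.069 to 0.836 for Hormad1 and Stra8. The values with libraries left out are not among the 36, and there some signs turned, as to -0.72 for Rhox5 and Rhox1. All 33 of the single-library differences moved by less than 1 SD of the wild-type libraries. Counts of 8 to 44 for Rhox1, Hormad1 and Stra8 in wild type limit what can be seen there, and the depth of the libraries was not used here.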
